A study of Mus musculus with 16 samples.

Results

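The 10 genes described here, of 14572 genes with a usable probe, are a choice among those with large losses in podocyte RNA after an immunotoxin: Adra2c, Pld6, Sla, Ube2ql1, Opcml, Sntg2, Spata21, Wfdc1, Dusp26 and Lrrc4. They were picked from earlier results on the same arrays for their falls in podocyte RNA after LMB2, so those falls are given below as a description without a test. All 10 passed the filter on dim probes, which kept a probe if, in some group, its signal stood well above background on every one of the 4 arrays. The label of podocyte genes did not hold for every one of them: 9 were higher in podocyte than in glomerular RNA, and Dusp26 was not. For Opcml, Sntg2 and Spata21 the filter itself favoured a podocyte excess, since their probes passed it through podocyte groups only.

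RNA came from the mouse kidney glomerulus on the C57BL/6N background, with 4 arrays in each of 4 groups. In Nphs1-RiboTag mice, Cre under the promoter of Nphs1 (nephrin, a podocyte gene) switches on an HA-tagged ribosomal protein, so that polysomes pulled down with an HA antibody carry podocyte RNA. The first group is this podocyte RNA from uninjured mice, and the second is glomerular RNA taken from polysomes of Nphs1-RiboTag mice without the pulldown, which also holds podocyte RNA. The other 2 groups are podocyte RNA from Nphs1-RiboTag-NEP25 mice 4 and 7 days after 1 tail vein dose of LMB2, 0.625 ng per g body weight. NEP25 mice carry human CD25 on podocytes, and LMB2 is a bacterial toxin fused to an antibody fragment against CD25 that stops protein synthesis in cells that take it up. The Cre driver and the tagged ribosome are shared by all groups. The design text ties the uninjured samples to Nphs1-RiboTag mice and names no injection for them, so the NEP25 transgene, the injection and LMB2 cannot be told apart. Age and sex of the mice, and whether each array is a separate animal, are not given in the sources used here, so the p-values measure the spread between these samples, which may be technical.

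Podocytes are the epithelial cells on the outer face of the glomerular capillary, whose interlocking foot processes and slit diaphragms form part of the filtration barrier. They do not readily divide, and injured podocytes flatten, lose their specialised gene programme and detach. The 10 genes belong to no single pathway: they code for a receptor, signalling adaptors and a phosphatase, for enzymes of lipid and ubiquitin chemistry, for neural-type adhesion proteins and membrane scaffolds, and for a secreted protease-inhibitor-like protein.

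Every array carried 59305 spots outside the controls, of which 49.3% to 57.5% were well above background and none was saturated. Of 30 podocyte markers tested, 30 were higher in podocyte than in glomerular RNA (limma, adjusted p under 0.05), and 14 of 14 endothelial, 10 of 10 mesangial and smooth muscle, 10 of 10 proximal tubule and 7 of 10 leukocyte markers were lower. Of 7 distal nephron markers, 6 were called lower, and of 5 parietal epithelial markers, 3 were called lower and 1 higher. Per the file headers, both uninjured groups lie on 1 slide and both LMB2 groups on another, each slide with its own scan, so slide and LMB2 cannot be told apart in any comparison with normal podocytes. Podocyte against glomerular RNA, and day 7 against day 4, each lie within 1 slide. In these bulk samples, fewer podocytes, less RNA per podocyte and less RNA on tagged ribosomes cannot be told apart. All levels are the log2 of the scanner's processed intensity, scaled to the 75th percentile of each array, so 0 is the 75th percentile of an array and a difference of 1 is a doubling. A level compares arrays for 1 probe and is not set against the level of another gene.

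As a group the 10 genes were 2.13 higher in podocyte than in glomerular RNA (median log2 difference, range -0.37 to 3.38), against a median of 0.38 for all genes. Relative to normal podocytes their median difference was -1.12 at day 4 (range -2.28 to 0.26; all genes -0.12) and -3.21 at day 7 (range -3.93 to -1.80; all genes -0.14). At day 7 this takes probes at background as measured; over the 7 genes well above background on every array the median was -3.07. At day 4, 8 of the 10 lay below normal on average, and for 7 of them the 4 day 4 arrays all lay below the 4 normal arrays, which 20.9% of all genes did. At day 7 all 10 lay below normal on average and 9 lay below without overlap, against 33.0% of all genes; both counts follow from the choice of the genes. The mean over the 10 genes, centred on normal podocytes, ran from -1.32 to -0.67 on the day 4 arrays and from -3.24 to -2.94 on the day 7 arrays, while the glomerular arrays ran from -2.30 to -1.87. The day 7 podocyte arrays lay below the glomerular arrays in this mean, with no overlap, which is a description only. The genes were chosen for their falls, these 2 groups lie on different slides, and Opcml, Sntg2 and Spata21 were at background at day 7. It did not hold for each gene: Ube2ql1 averaged -2.92 at day 7 and -3.24 in glomerular RNA.

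**Figure D1:**
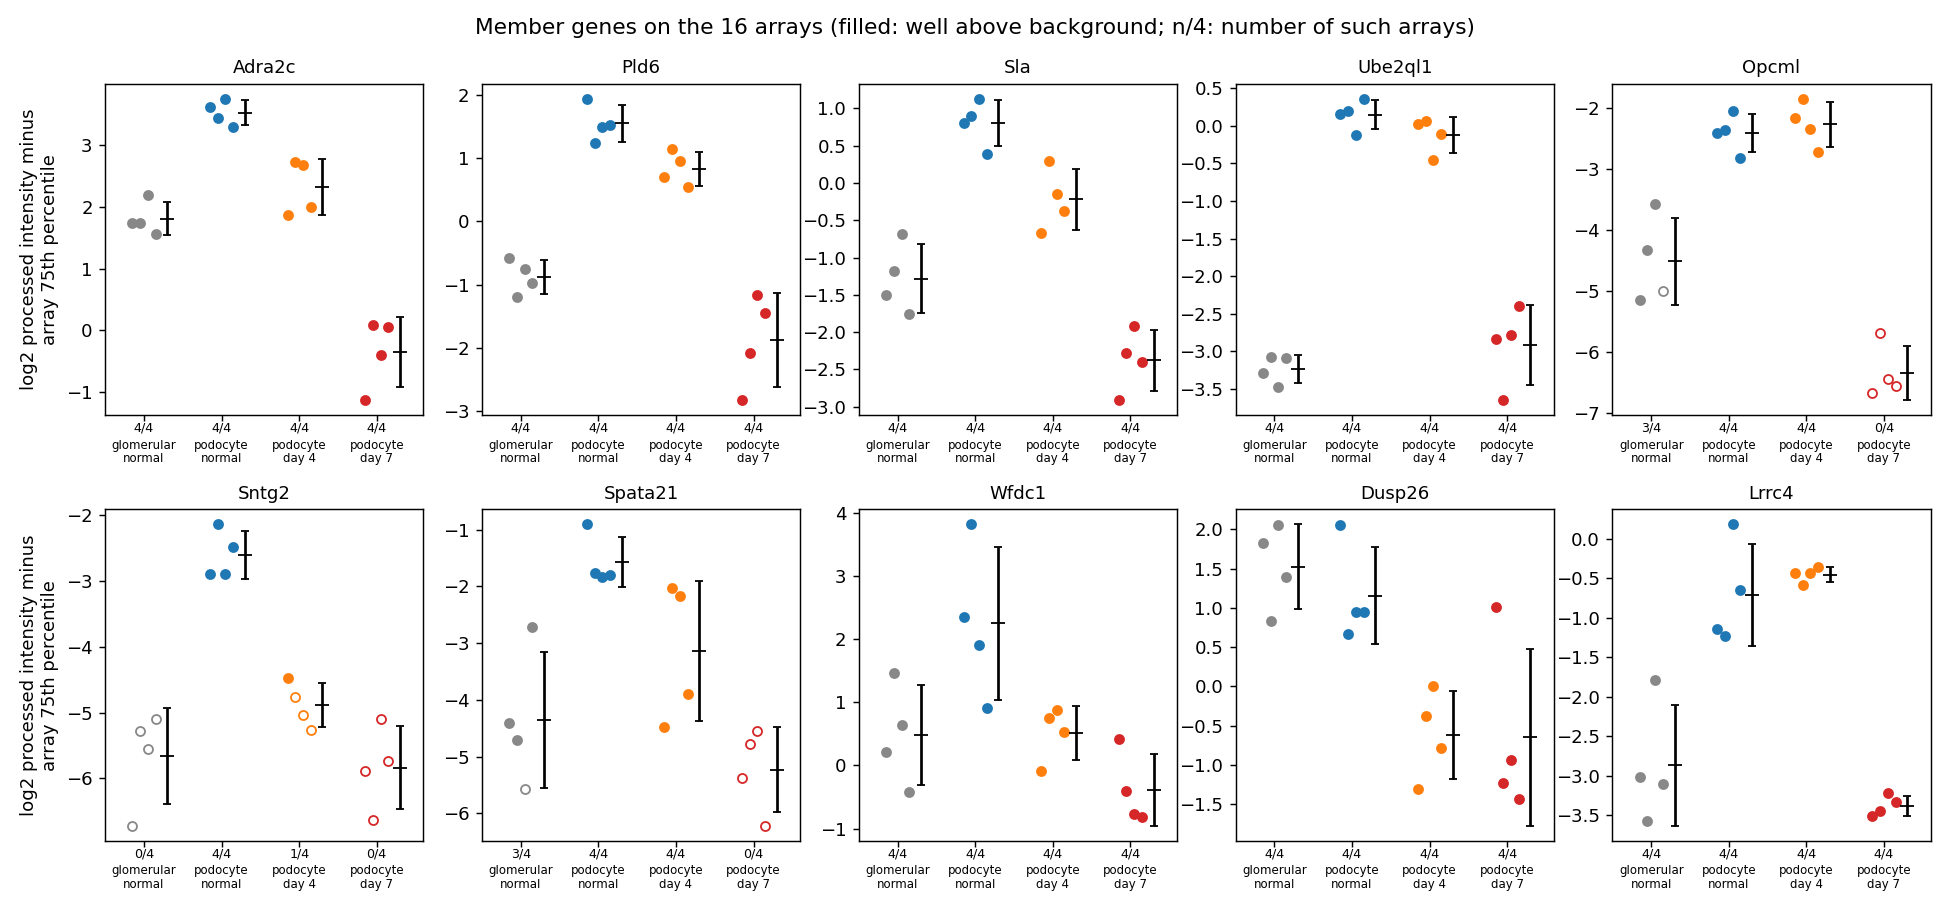
Level of each of the 10 genes on the 16 arrays (y axis, log2 processed intensity relative to the 75th percentile of the array) in the 4 groups, with the mean and SD beside the points. Filled points are well above background on that array, and n/4 gives their number; at day 7 no array was well above background for Opcml, Sntg2 and Spata21.

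Opcml codes for an adhesion protein of the IgLON family, held on the cell surface by a lipid anchor and best known from neurons. Its levels in normal podocytes were -2.41, -2.36, -2.04 and -2.82, and at day 4 they were -2.15, -1.84, -2.34 and -2.72. The day 4 arrays overlapped with the normal ones, and replicate 2 at day 4 lay above all of these. The difference was 0.15 (SE 0.32), which became -0.03 under quantile normalization. At day 7 the levels were -6.67, -5.68, -6.45 and -6.56, all far below the other podocyte arrays and none well above background. Since only a bound exists there, day 7 was at least 4.49-fold lower than normal and at least 4.96-fold lower than day 4. Glomerular levels were -5.15, -4.33, -3.58 and -5.00, below every normal podocyte array, and the podocyte excess was 2.11 (SE 0.32, limma adjusted p = 2.9e-05).

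Lrrc4, also called netrin-G ligand 2, is a leucine-rich repeat membrane protein that binds netrin-G2 across neuronal synapses. Normal podocytes gave -1.15, -1.24, 0.18 and -0.65, and day 4 podocytes gave -0.44, -0.59, -0.44 and -0.36. The day 4 arrays were tightly grouped (SD 0.10) inside the wider normal range (SD 0.65), and the difference was 0.26 (SE 0.33). Day 7 podocytes gave -3.51, -3.45, -3.22 and -3.33, below every normal and day 4 array. The day 7 mean was 6.33-fold below normal, a log2 difference of -2.66. In glomerular RNA the levels were -3.02, -3.57, -1.78 and -3.10, again below all normal podocyte arrays, by 2.15 (SE 0.33, limma adjusted p = 3.4e-05). Opcml and Lrrc4 thus shared a course in which day 4 overlapped with normal and day 7 did not.

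The 250 bases before a RefSeq start site of each gene are shown because these genes overlapped with normal at day 4 and lay far below it at day 7. The Opcml window lies inside the annotated gene, which begins at 27790716, so it precedes a start site within the gene. They come from RefSeq (GRCm38.p6), where 7 of the 10 genes have a window, and are written 5′ to 3′ on the gene's strand: Opcml at chr9:27791049-27791298, plus strand, and Lrrc4 at chr6:28831748-28831997, minus strand. Capitals mark matches, on either strand, to the motif letters searched.
Opcml: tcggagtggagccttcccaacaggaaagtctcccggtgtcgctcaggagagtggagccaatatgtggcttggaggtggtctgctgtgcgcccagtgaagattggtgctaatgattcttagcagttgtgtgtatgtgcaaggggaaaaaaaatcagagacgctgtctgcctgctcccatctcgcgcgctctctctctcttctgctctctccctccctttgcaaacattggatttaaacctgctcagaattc
Lrrc4: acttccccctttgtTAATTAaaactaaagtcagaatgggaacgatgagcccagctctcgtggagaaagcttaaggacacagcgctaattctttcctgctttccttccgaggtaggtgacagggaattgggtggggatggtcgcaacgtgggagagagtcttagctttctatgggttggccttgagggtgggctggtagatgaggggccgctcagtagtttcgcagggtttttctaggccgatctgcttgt
The match in capitals is TAATTA in Lrrc4, letters bound by homeodomain factors such as Lmx1b, a podocyte transcription factor. TAATTA occurred in 5.29% of all 32851 RefSeq windows of 300 bases, which also take in the first 50 bases of the gene. A match is a description of the letters and not a binding site.

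Sntg2 codes for gamma-2 syntrophin, an adaptor with a PDZ domain that belongs to the dystrophin-associated scaffold under the plasma membrane. Its levels were -2.89, -2.14, -2.89 and -2.49 in normal podocytes. At day 4 they were -4.47, -4.76, -5.03 and -5.26, already below all normal arrays, and only the first was well above background. At day 7 they were -5.89, -6.63, -5.10 and -5.74, none well above background, and they overlapped the day 4 values. The mean difference from normal at day 4 was -2.28 (SE 0.36), with 3 of the 4 arrays not well above background, and this difference was -0.54 with normexp background correction. The day 7 level was at least 3.92-fold below normal. No glomerular array was well above background (-6.72, -5.28, -5.55 and -5.10), and podocyte RNA was at least 5.90-fold higher (limma adjusted p = 2.0e-06). The probe passed the filter only through the normal podocyte arrays, so a podocyte excess was favoured by the filter and this call is no independent support.

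Adra2c codes for the alpha-2C adrenergic receptor, which lowers cyclic AMP through Gi proteins when it binds noradrenaline. Normal podocytes gave 3.63, 3.45, 3.75 and 3.29. Day 4 podocytes gave 1.86, 2.73, 2.69 and 2.00, and day 7 podocytes gave -1.13, 0.08, -0.39 and 0.06. The 3 podocyte groups did not overlap and stepped down in that order, with replicates 1 and 4 the lower pair at day 4. The fall was -1.21 at day 4 and -3.87 at day 7 (SE 0.27 each), or 14.7-fold at day 7. Every array was well above background, so this fold is measured on both sides, and it ranked 2 of the 12431 genes well above background on all 8 arrays of the comparison. Glomerular levels of 1.74, 1.75, 2.20 and 1.56 lay below normal podocytes by 1.72 (SE 0.27, 3.29-fold, limma adjusted p = 3.3e-05) and above the day 7 podocyte arrays.

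Sla is the Src-like adaptor, which in lymphocytes brings activated receptors to Cbl ubiquitin ligases for degradation. Normal podocytes gave 0.81, 0.90, 1.13 and 0.39, day 4 gave -0.67, 0.30, -0.14 and -0.37, and day 7 gave -2.91, -2.28, -1.92 and -2.40. These 3 groups did not overlap. The difference from normal was -1.03 at day 4 and -3.18 at day 7 (SE 0.27 each), a 9.09-fold fall by day 7. Although Sla is best known from leukocytes, its glomerular levels of -1.51, -1.18, -0.69 and -1.76 were below normal podocytes by 2.09 (SE 0.27, limma adjusted p = 4.9e-06). Of the 10 leukocyte markers, 7 were called lower in podocyte RNA, and their mean over all 10 was 3.03 higher in glomerular than in normal podocyte RNA. After LMB2 their mean lay between -0.37 and 0.99 of normal on the day 4 arrays and between 0.00 and 0.53 on the day 7 arrays.

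Dusp26 is an atypical dual-specificity phosphatase that removes phosphate from MAP kinases and other proteins. Normal podocytes gave 2.06, 0.67, 0.95 and 0.95, and glomerular RNA gave 1.82, 0.83, 2.05 and 1.39. These groups overlapped: the podocyte excess was -0.37 (SE 0.49, limma adjusted p = 0.495), so a podocyte enrichment was not detected for this gene. Day 4 arrays were at -1.30, -0.37, 0.00 and -0.79, all below normal, with a mean difference of -1.77 (SE 0.49). Day 7 arrays were at 1.02, -1.23, -0.94 and -1.44, where replicate 1 lay within the normal range and the other 3 below it. The day 7 difference was -1.80, and it ran from -2.36 to -1.50 when single arrays were left out. Day 7 and day 4 differed by -0.03, from -0.59 to 0.23 with single arrays left out. The day 7 difference of Dusp26 ranked 106 of the 12431 genes measured on both sides.

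Pld6 is an enzyme of the mitochondrial outer membrane that cleaves cardiolipin and takes part in mitochondrial fusion and in making piRNAs in germ cells. Normal podocytes gave 1.94, 1.23, 1.49 and 1.53. Day 4 podocytes gave 0.70, 1.14, 0.95 and 0.54, below the normal range but close to it. Day 7 podocytes gave -2.83, -2.09, -1.16 and -1.44, below all of these. The difference from normal was -0.72 at day 4 and -3.43 at day 7 (SE 0.29 each), so 20.9% of the day 7 difference was present at day 4. Day 7 was 10.8-fold below normal. Glomerular levels of -0.58, -1.20, -0.76 and -0.97 were below normal podocytes by 2.43 (SE 0.29, 5.37-fold, limma adjusted p = 2.7e-06).

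Ube2ql1 codes for a protein of the ubiquitin-conjugating (E2) enzyme family, related to the class Q enzymes. Its levels were 0.16, 0.19, -0.12 and 0.36 in normal podocytes and 0.02, 0.06, -0.46 and -0.11 at day 4. These groups overlapped, with a difference of -0.27 (SE 0.21). At day 7 the levels were -2.84, -3.65, -2.79 and -2.40, all below the other podocyte arrays, and the fall was -3.07, or 8.38-fold. Only 8.86% of that fall was present at day 4. Glomerular RNA gave -3.29, -3.08, -3.48 and -3.09, and the podocyte excess of 3.38 (SE 0.21, 10.4-fold, limma adjusted p = 4.8e-09) was the largest of the 10. The 250 bases before its start site, chr13:69739898-69740147 on the minus strand (RefSeq, GRCm38.p6), are shown beside those of Opcml and Lrrc4 because the gene shared their course; capitals again mark motif matches.
Ube2ql1: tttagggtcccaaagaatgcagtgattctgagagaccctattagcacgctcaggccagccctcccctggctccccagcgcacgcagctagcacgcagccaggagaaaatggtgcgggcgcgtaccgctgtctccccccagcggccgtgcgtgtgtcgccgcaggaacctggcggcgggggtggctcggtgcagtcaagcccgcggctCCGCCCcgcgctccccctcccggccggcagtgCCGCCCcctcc
Both capital runs are GGGCGG on the other strand, letters bound by SP1, which occurred in 35.7% of all windows of 300 bases. The window of Ube2ql1 was the richest in G and C of the 10 genes' windows (70.7%), against 53.7% for Opcml, 52.7% for Lrrc4 and a median of 52.7% over all windows.

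Over the 9 windows of the 7 genes, GGGCGG was found in 5 (Pld6, Sntg2 and Ube2ql1) and CAGCTG, an E-box of the type bound by Tcf21, in 2 (Adra2c and Pld6; 16.3% of all windows). Windows of 1 gene can overlap, as both windows of Sntg2 do. GCGGGGGCG, bound by Egr proteins and WT1 (2.91% of all windows), and GTAAACA, bound by forkhead factors (3.65%), were found in 0 of the 9, which says only that these letters are not in these windows. Both strands were searched over 300 bases.

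Wfdc1 codes for a secreted protein with a whey acidic protein (WAP) domain, a fold found in protease inhibitors. Normal podocytes gave 2.35, 3.81, 1.91 and 0.91, the widest spread of the 10 genes in that group (SD 1.21). Glomerular RNA gave 0.22, 1.47, 0.64 and -0.41, with replicate 2 highest and replicate 4 lowest, as in the podocyte RNA. The groups overlapped, and the podocyte excess was 1.77 (SE 0.52, limma adjusted p = 0.0064). Day 4 arrays were at -0.09, 0.75, 0.88 and 0.53, all below normal, with a mean difference of -1.73. Day 7 arrays were at 0.41, -0.40, -0.76 and -0.81, also below normal, with a mean difference of -2.64 (SE 0.52), or 6.22-fold. Day 4 and day 7 overlapped, and 65.5% of the day 7 fall was present at day 4.

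Spata21 codes for a protein with EF-hand calcium-binding motifs, named for its association with spermatogenesis. Normal podocytes gave -0.91, -1.76, -1.83 and -1.79, so replicate 1 stood above the other 3. Day 4 podocytes gave -4.48, -2.02, -2.16 and -3.89, all below normal but split into a lower pair (replicates 1 and 4) and a higher pair. Day 7 podocytes gave -5.38, -4.77, -4.55 and -6.22, none well above background, and all below day 4. The difference from normal was -1.56 (SE 0.63) at day 4, and day 7 was at least 8.01-fold below normal. Glomerular levels of -4.41, -4.71, -5.57 and -2.72 lay below normal podocytes by 2.78 (SE 0.63, limma adjusted p = 0.00091). A second Spata21 probe gave the same order of groups, with differences of 2.50 from glomerular RNA, -1.62 at day 4 and -2.92 at day 7.

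**Figure D2:**
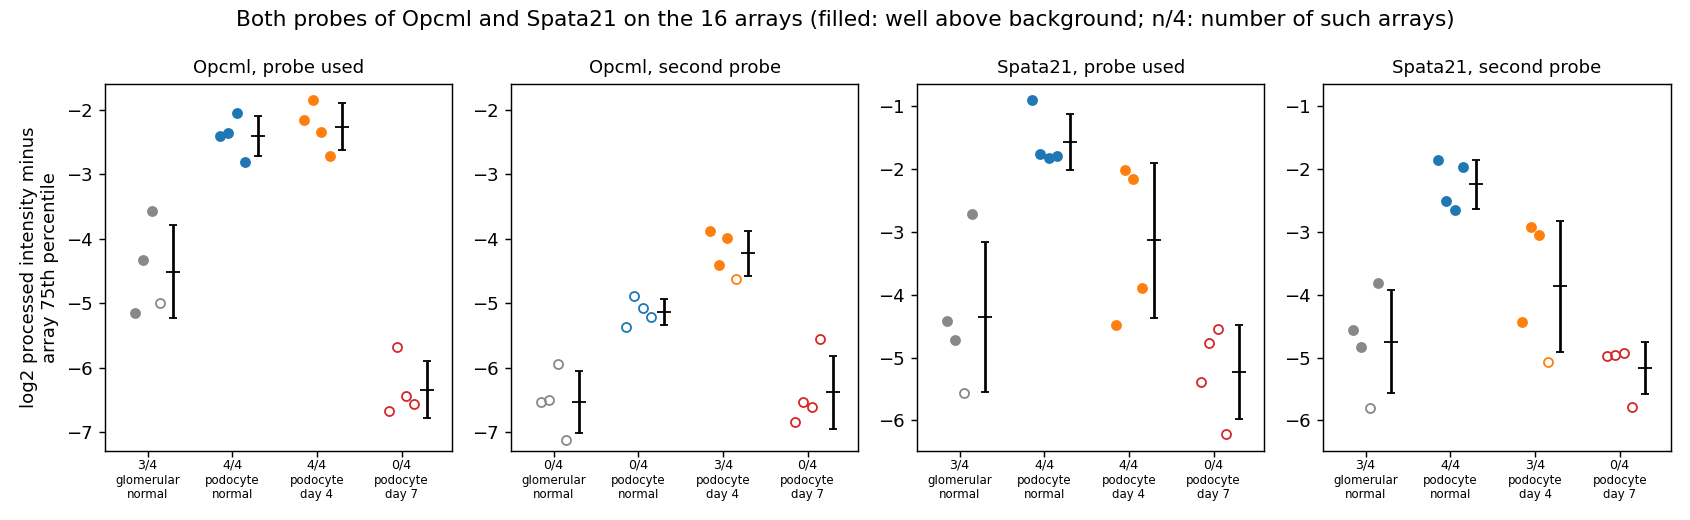
Both probes of Opcml and of Spata21 on the 16 arrays (y axis, log2 processed intensity relative to the 75th percentile of the array), with filled points well above background. The Spata21 probes ran alike across the groups, while the second Opcml probe was well above background on 3 of 4 day 4 arrays and on none of the other 12.

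The courses after LMB2 differed among the 10 genes. The day 4 arrays of Ube2ql1, Opcml and Lrrc4 overlapped with normal (differences of -0.27, 0.15 and 0.26). Pld6, Adra2c and Sla had 20.9%, 31.2% and 32.3% of their day 7 difference at day 4 and fell further to day 7 without overlap. Wfdc1 and Dusp26 had 65.5% and 98.1% of it at day 4, and their day 4 and day 7 arrays overlapped. For Sntg2 and Spata21, with no day 7 array well above background, such a share is not determined; their day 4 arrays lay below normal, and those of day 7 overlapped with day 4 for Sntg2 and lay below it for Spata21. Between day 4 and day 7, on 1 slide, the median difference of the 10 genes was -2.41 (range -4.08 to -0.03; all genes -0.07; -2.66 over the 7 genes above background on every array), and 7 of them fell without overlap, as 21.9% of all genes did. Day 4 and day 7 arrays sit in different rows of that slide, and the arrays of both days took part in choosing the genes.

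**Figure D3:**
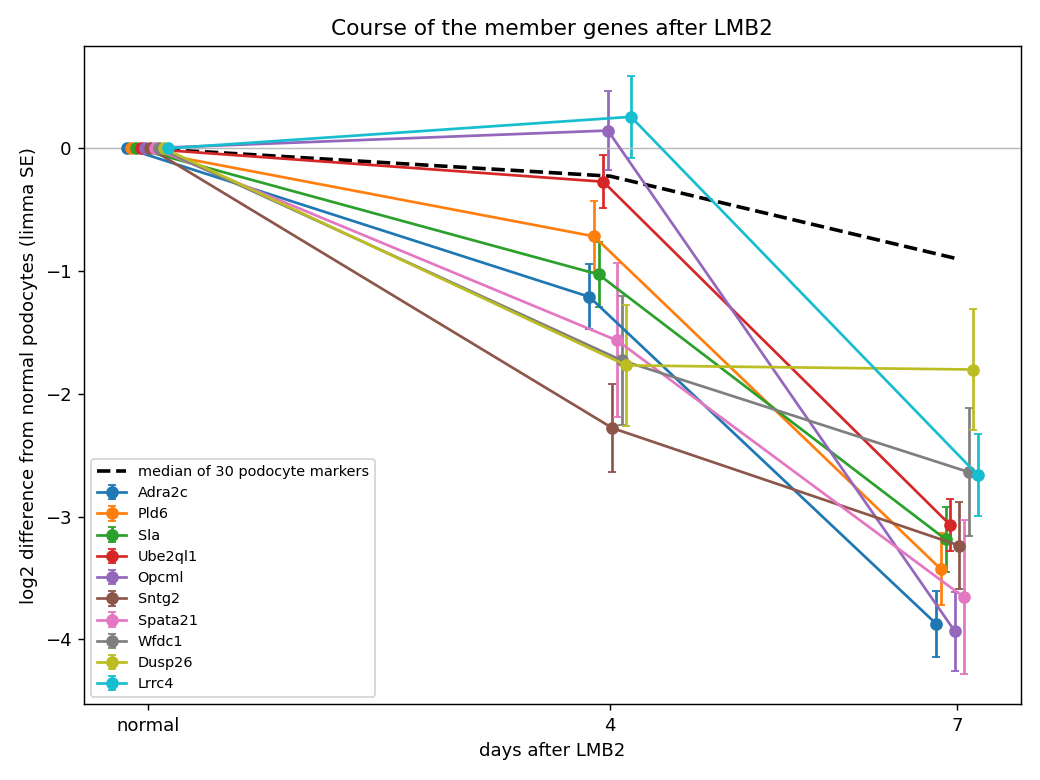
Log2 difference from normal podocytes (y axis, with limma SE) at days 4 and 7 after LMB2 (x axis) for each of the 10 genes, and the median of 30 podocyte markers as a dashed line. All 10 genes lie below 0 at day 7, while Opcml and Lrrc4 lie at 0.15 and 0.26 at day 4.

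Other genes fell as far as these 10, given here without a test. Among the 12431 genes well above background on all 8 arrays of normal and day 7 podocytes, Cyp26a1, an enzyme that breaks down retinoic acid, differed most (-4.44), followed by Adra2c (-3.87), Pld6 (-3.43), Sema3g (-3.35) and Sla (-3.18). Ube2ql1 ranked 7, Lrrc4 15 and Wfdc1 18. Glcci1 (-1.80) and Cttnbp2 (-1.79) came just after Dusp26. The choice is therefore not a list of the largest day 7 falls alone. At day 4, among 12419 such genes, Kap, a proximal tubule gene (-2.28), and Hoxd9 (-2.15) differed most, while Dusp26 ranked 7, Wfdc1 9 and Spata21 14.

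The podocyte markers fell less. Their median difference was -0.23 at day 4, where 2 of 30 were called higher and 10 lower (limma, adjusted p under 0.05; 12.3% and 19.9% of all genes), and -0.90 at day 7, where 1 was called higher and 22 lower (21.6% and 36.7%). Markers of other cells moved as follows on the same arrays. The 14 endothelial markers averaged between -0.97 and 0.04 of normal podocytes at day 4, with 3 called lower and 0 higher by limma (8 and 0 at an unadjusted p under 0.05), and between -0.21 and 0.28 at day 7, with 3 called higher and 2 lower. The 10 mesangial and smooth muscle markers averaged between -0.53 and 0.03 of normal podocytes at day 4 and between 1.24 and 1.77 at day 7. At day 7, 4 of 10 were called higher and 0 lower by limma (5 and 1 at an unadjusted p under 0.05). Their day 7 differences ran from -0.48 to 6.01 with a median of 0.65, so the rise was not shared by all of them. The 5 parietal epithelial markers averaged between -0.26 and 0.29 at day 4 and between 0.59 and 2.05 at day 7, with 5 of 5 called higher. The 10 proximal tubule markers ran from -1.61 to 1.53 at day 4 and from -1.73 to 2.12 at day 7, highest in replicate 1 and replicate 4 respectively, and 0 of 10 was called by limma at either day (0 also at an unadjusted p under 0.05). The part of these shifts in the losses was not tested.

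In the comparison of podocyte with glomerular RNA from uninjured mice, 9 of the 10 genes were called higher and 0 lower (limma, adjusted p under 0.05; 0 lower also at an unadjusted p under 0.05), and 8 were higher on every podocyte array. Among all genes, 51.6% were called higher, 27.5% lower, and 47.8% were higher without overlap. This comparison was not the one that chose the genes, but it shares the 4 normal podocyte arrays with it, so the comparisons are not independent. The 9 calls include Sntg2, whose probe passed the filter only through the normal podocyte arrays. They also include Opcml and Spata21, whose probes passed through podocyte groups but not through glomerular RNA (3 of 4 arrays). The filter favoured a podocyte excess for these genes, so their calls are no independent support. The median of 2.13 lay near that of the podocyte markers, 2.36 (range 0.43 to 3.57). With normexp background correction in place of the scanner's own, all 9 calls held, while the excess of Opcml, Sntg2 and Spata21, dim in glomerular RNA, shrank to 0.77, 0.99 and 1.20. With the same correction the day 7 differences of Opcml, Sntg2, Spata21, Lrrc4, Ube2ql1 and Sla were -0.67, -0.61, -1.03, -1.37, -1.81 and -2.11, and those of Adra2c, Pld6, Wfdc1 and Dusp26 were -3.54, -2.57, -2.31 and -1.47. The order of the 10 genes by size of fall thus changed with this setting. Dusp26 had the smallest difference with the scanner's correction, and Opcml, Sntg2, Spata21 and Lrrc4 had smaller ones than Dusp26 with normexp. With normexp and quantile normalization, Lrrc4 (-1.56) differed more than Dusp26 (-1.39). The normexp setting added an offset of 50 to the intensities, which by itself narrows log2 differences of dim probes. Correction and offset cannot be told apart here.

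**Figure D4:**
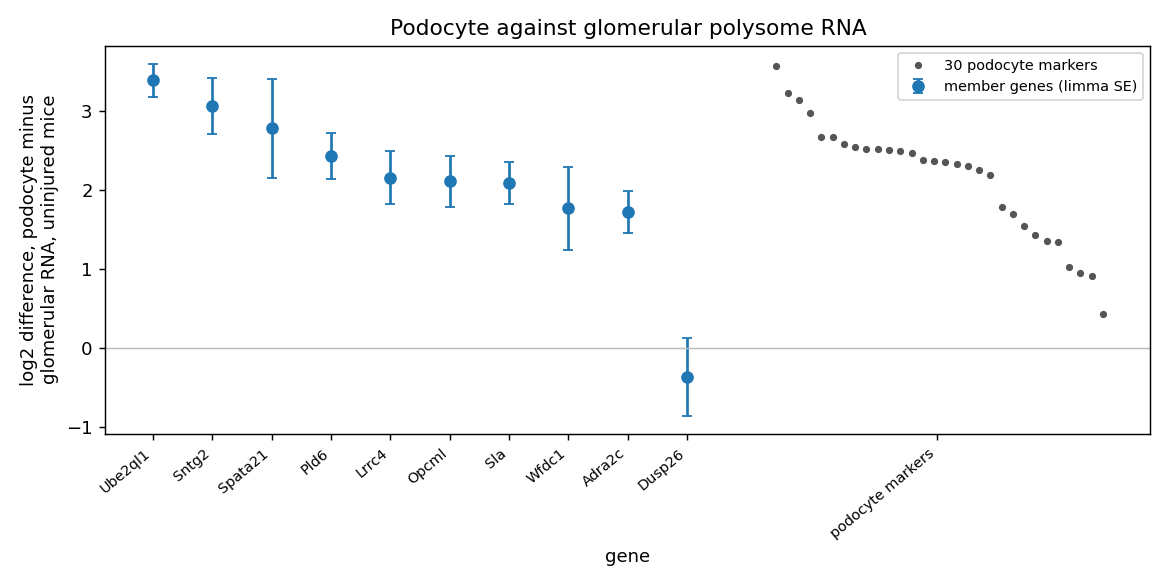
Log2 difference between podocyte and glomerular RNA of uninjured mice (y axis) for each of the 10 genes with limma SE, and for 30 podocyte markers as single points. Ube2ql1 stands highest at 3.38, Dusp26 lies at -0.37, and the other 8 lie within the range of the markers, 0.43 to 3.57.

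Genes of the same families and complexes were tested to see how far the losses reached, from lists of 76 genes of which 55 could be tested. Of the 55, 8 were called higher and 7 lower at day 4, and 15 higher and 13 lower at day 7 (limma, adjusted p under 0.05), with medians of 0.04 and 0.07 against -0.12 and -0.14 for all genes. The 15 include Pld4, Dusp18, Adrb1 and Sgca, for which no normal podocyte array was well above background. Between day 4 and day 7, 9 were called higher and 10 lower, against 13.2% and 20.7% of all genes. In podocyte against glomerular RNA, 25 were called higher and 17 lower, against 51.6% and 27.5% of all genes. The shares lower after LMB2 were thus no larger than the background of 19.9% and 36.7%.

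Among the adhesion partners, Ntng2, the netrin-G2 that binds Lrrc4, followed a similar course. It was 2.38 higher in podocyte than in glomerular RNA (SE 0.17, limma adjusted p = 1.1e-08), differed by 0.02 from normal at day 4 (adjusted p = 0.94) and fell by 1.52 at day 7 (adjusted p = 2.8e-06). It was the only 1 of the 4 genes of the Lrrc4 and netrin-G list that could be tested. Of the 3 IgLON genes tested, Negr1 was higher in podocytes by 1.86 (SE 0.39) and fell by 2.26 at day 7 (limma adjusted p = 2.0e-04). Its second probe, which failed the filter on dim probes, gave 0.31 at day 7. With normexp the day 7 difference of the probe used was -0.85 (limma adjusted p = 0.00083). Iglon5 was lower in podocyte RNA (a difference of -4.06, limma adjusted p = 9.2e-09) and differed by -0.07 from normal at day 7.

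Of the 13 dystrophin complex genes tested, 3 were called higher and 2 lower at day 7. Among those that fell was Sgcb, beta-sarcoglycan, at -0.73 (SE 0.12, limma adjusted p = 1.5e-04), which was higher in podocyte than in glomerular RNA by 1.45. Dag1, the dystroglycan that links the complex to the matrix, rose by 0.62 at day 7 (adjusted p = 0.0034). Sgca, alpha-sarcoglycan, was above background on no normal podocyte array and on all 4 at each day after LMB2, at least 6.29-fold higher at day 4 and at least 3.33-fold higher at day 7. These bounds hold for the scanner's correction. With normexp the log2 differences of Sgca were 1.11 at day 4 and 0.76 at day 7 (limma adjusted p = 1.6e-05 and 1.6e-04). The scaffold genes thus moved both ways while Sntg2 was lost.

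Of the 5 adrenergic receptors tested, 0 were called lower at day 4 or day 7 by limma, at an adjusted or an unadjusted p under 0.05. At day 7, 1 was called higher: Adrb1, at 1.88 (adjusted p = 0.0022), with no normal array well above background, while its second probe gave -0.92. With the mean of both probes that call was lost (adjusted p = 0.29). Adra2b, the alpha-2B receptor, above background on all arrays, was lower in podocyte than in glomerular RNA (difference -2.15, limma adjusted p = 0.0013) and differed from normal by -0.11 at day 4 and -0.06 at day 7. Adra2a was also lower in podocyte RNA (-3.38, adjusted p = 7.7e-04), and with normexp this difference was -0.87. Its probe passed the filter on dim probes only through glomerular RNA, which favoured a lower podocyte level. The Adra2a call is therefore no independent support.

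Of 9 tested genes of the phospholipase D family and Pld6 partners, 3 were called higher and 3 lower at day 7. Lpin1, a phosphatidate phosphatase, fell by 1.71 (SE 0.38, limma adjusted p = 0.0015), and its second probe, which failed the filter on dim probes, gave -1.75. Tdrkh, a mitochondrial Tudor protein of piRNA processing, rose by 1.18 (SE 0.14, adjusted p = 5.8e-06). Pld1, which cleaves phosphatidylcholine, was higher in podocytes by 2.07 and differed from normal by -0.18 at day 7 (adjusted p = 0.14). Pld4, a family member of myeloid cells, was well above background on all day 4 arrays and on no normal or day 7 podocyte array. It was at least 1.74-fold higher at day 4 than normal, and with normexp and quantile normalization that call was lost (adjusted p = 0.14). The 3 called higher at day 7 include Pld4 (1.08, limma adjusted p = 0.021), though it was dim in both groups compared. That day 7 call was lost with quantile normalization (adjusted p = 0.088) and with normexp (adjusted p = 0.099).

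Of the 4 genes of the Src-like adaptor and Cbl list, only Cblb was called after LMB2, lower at day 7 by -0.59 (SE 0.10, limma adjusted p = 1.4e-04), where its second probe gave -0.17. Of the 2 class Q enzymes, Ube2q1 differed from normal by 0.05 at day 7 (SE 0.09, adjusted p = 0.61), with a 1.30 excess in podocyte RNA. Among 8 WAP domain genes tested, 3 were called higher and 0 lower at day 7 (limma; 0 lower also at an unadjusted p under 0.05), among them Slpi, a leukocyte protease inhibitor, up by 2.85 (SE 0.50, adjusted p = 2.1e-04), and Wfikkn1, up by 2.27 (SE 0.22, adjusted p = 8.2e-07). Wfikkn1 was well above background on 1 of 4 normal arrays, and its day 7 difference was 0.66 with normexp. Its probe passed the filter on dim probes only through the LMB2 groups, which favoured a rise, so this call is no independent support. Wfdc1 went the other way. Wfikkn2 was 2.71 higher in podocyte RNA, and at day 7 its probes gave -0.06, -0.77 and -1.41. Of 10 atypical dual-specificity phosphatases, 5 were called higher and 5 lower at day 7, such as Dusp14 at 0.69 (adjusted p = 0.0067), Dusp15 at -0.93 (adjusted p = 0.0061) and Dusp23 at -0.95 (adjusted p = 1.9e-05). The 5 higher include Dusp18 (1.83, limma adjusted p = 0.0012), which was well above background on no normal and on 1 of 4 day 7 arrays.

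Outside the 10 genes, the profiles nearest to their mean over the 16 arrays were those of Lrrc49, Rassf10, Ngb, Zfp423 and Ddn, at a root mean square log2 distance of 0.34, 0.37, 0.38, 0.40 and 0.41 from it. Ngb codes for neuroglobin, and Ddn for dendrin, a protein of the podocyte slit diaphragm and of neuronal dendrites. Dendrin was 2.51 higher in podocyte than in glomerular RNA and differed from normal by -0.65 at day 4 and -2.92 at day 7. Neuroglobin gave 2.57, -0.83 and -2.99 in the same comparisons. These genes were chosen for the likeness, so their values are a description.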

How the data were processed

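RNA from 16 samples was hybridised to Agilent arrays in 1 colour. The deposited scanner files hold intensity values extracted with Agilent Feature Extraction 11.5.1.1, per the submitters' processing notes; the processed signal was background-corrected by that software, per the file headers. Its log2 minus the array's 75th percentile was computed here. The authors' deposited value table holds log2 values that equal single arrays' values up to a constant; its normalization is unknown, and 6 columns match another replicate of the same group, so it served only as an alternative. Control spots and outlier flags were left out.

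Of 55681 probes, 26576 had 1 gene symbol through RefSeq accessions. Kept probes (19055) were well above background on all 4 arrays of a group, and the brightest stood for a gene. Bounds ("at least") set a group with no array well above background at its arrays' lowest such signal, or at the probe's own value where that was higher. One limma model (version 3.58.1, R 4.3.3) covered 4 groups, with 12 residual degrees of freedom and Benjamini-Hochberg adjustment over 14572 genes. The procedure was tested on simulated data.

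The genes and lists were chosen with earlier results of these data known. Text names all 10 genes, related genes from the lists, the 5 nearest profiles and genes next to the falls in rank; Adrb1's second probe and ranks among measured genes were added after the values were seen. Results on 1 motif and a few genes are not reported here. Same-numbered podocyte and glomerular arrays of uninjured mice deviated together (correlations 0.42, 0.46, 0.46 and 0.51), so the numbers pair them; a replicate block changed no call of the 10 genes there. Alternatives were other scaling, normexp with an offset of 50, filters, probes, fits and left-out arrays.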

Additional observations from a re-analysis of the deposited data

Results flagged for a closer look

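The Spata21 level on normal podocyte replicate 1, -0.91, stood apart from the other 3 arrays of its group, with a gap of 0.93 of the group's range. It was the only such array among the 40 groups of 4 examined for the 10 genes, where chance would give about 1 in 20.

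A second Opcml probe, not used because no group had it well above background on all 4 arrays, averaged -4.23 on the day 4 arrays and was well above background on 3 of them. On the normal arrays it gave -5.37, -4.88, -5.08 and -5.22, none well above background, so this probe was 0.91 higher at day 4, where the probe used gave 0.15. From day 4 to day 7 the second probe differed by -2.16 and the probe used by -4.08, neither of them well above background on any day 7 array.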

How the results depend on the processing

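Of 708 alternative values for the 10 genes, 676 kept their call or stayed within the spread between replicates, and 32 moved, all of them with normexp. In 10 values the sign changed, all of differences near 0: Opcml at day 4, and Dusp26 at day 7 against day 4. In podocyte against glomerular RNA, the median of the 10 genes was 2.32 with quantile normalization, 1.46 with normexp and 1.31 with normexp and quantile normalization, and 1.98 to 2.40 with single arrays left out. With the same normexp settings the medians were -0.64 and -0.75 at day 4, -1.64 and -1.74 at day 7, and -1.0002 and -1.11 for day 7 against day 4. With probes well above background on every array, 7 of the 10 genes were left, with medians of -3.07 at day 7 and -2.66 for day 7 against day 4. Leaving out single arrays gave -1.27 to -0.97, -3.41 to -3.09 and -2.64 to -2.22 in these 3 comparisons.

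Among related genes, 6 were called lower at day 7 against day 4 with normexp (10 as reported, 6 to 11 over all settings and 7 to 9 with single arrays left out). With the every-array filter, 40 of the 55 were left, 7 called lower in podocyte RNA (17 as reported) and 4 higher at day 4 (8 as reported). With the replicate number as a block, by limma, 0 were called lower at day 4 (10 at an unadjusted p under 0.05, 7 as reported) and 4 higher at day 7 against day 4 (9 as reported). The numbers do not pair the groups of these comparisons, whose same-numbered arrays correlated between -0.41 and 0.16. The podocyte difference of Wfikkn1 was -0.50 and turned to 0.0443 with normexp. The cause of these changes was not tested. The slide as a block was not run, since each comparison lies either within 1 slide or wholly between slides. Signal over background limits Opcml, Sntg2 and Spata21 at day 7.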

Other observations

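At day 4, replicates 1 and 4 both lay below replicates 2 and 3 for 6 of the 10 genes: Adra2c, Pld6, Sla, Spata21, Wfdc1 and Dusp26. The same held for 14 of 30 podocyte markers and for 28.7% of all genes. This split was noticed after the values were seen, and it is given without a test.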
